A study of Mus musculus with 6 samples.

Results

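The genes of mitosis and of the passage from G2 into mitosis were followed across 6 arrays of mouse ESCs and EpiLCs. The list holds 43 genes, and 41 of them have a probe set that the array annotation assigns to that gene alone, out of 17097 genes measured in this way. *Ccnb1*, which encodes cyclin B1, and *Nuf2*, a gene of the kinetochore, carry no such probe set and were not measured here. Where a gene has several such probe sets, the brightest, with the highest mean over the 6 arrays, stands for it. At that probe set, no member differed by 1.5-fold between EpiLCs + PRDM14 and EpiLCs (d2), between EpiLCs + PRDM14 and EpiLCs (d4), or between EpiLCs (d4) and EpiLCs (d2). In these comparisons 1.13% to 2.73% of all genes passed in each direction, so a count of 0 of 41 is close to the share over all genes. *Pttg1* alone was past 1.5-fold between EpiLCs (d2) and ESCs, and *Kif23* alone between the EpiLCs labelled Tet1/Tet2 KD with and without PRDM14.

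Cells prepare for division in G2 and divide in mitosis. CDK1 with cyclins A and B starts mitosis, condensin packs the chromosomes, and kinesins and the Aurora and Polo-like kinases build the spindle. The spindle assembly checkpoint holds the cell until each kinetochore is attached, and the ubiquitin ligase APC/C then marks securin and the cyclins for destruction, which frees separase and lets the chromosomes part. Most of these genes are transcribed late in the cell cycle through the MuvB complex with B-MYB and FOXM1, and the CHR and CCAAT elements of their promoters are known binding sites for this machinery and for NF-Y. Mouse ESCs are known for rapid division with a short G1 phase.

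The cells derive from E14tg2a, a mouse ESC line, with a doxycycline-inducible *Prdm14* cassette placed by piggyBac transposition. EpiLCs + PRDM14 are epiblast-like cells made from ESCs by 2 days with activin A and bFGF, then replated in GK15 medium and kept to day 4 with doxycycline. EpiLCs (d4) had the same treatment without doxycycline, and EpiLCs (d2) are the cells at day 2. These 3 cultures carried a scramble shRNA. Tet1/Tet2 KD EpiLCs + PRDM14 and Tet1/Tet2 KD EpiLCs (d2) carried lentiviral shRNAs against *Tet1* and *Tet2*. The label of the array of undifferentiated ESCs names no shRNA. Each condition has 1 array, so no difference here has a replicate check or a p-value, and their number limits the precision of every value. A gene was called higher or lower at 1.5-fold, a log2 difference of 0.58 or more. In RNA from a whole culture, fewer dividing cells and less of a transcript per cell cannot be told apart.

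The medians of all probe sets were 5.28 to 5.29 on the ESC and scramble arrays and 5.07 on both arrays labelled KD. The only *Prdm14* probe set read 4.95 in EpiLCs + PRDM14, against 6.96 in ESCs, 5.04 in EpiLCs (d2) and 5.18 in EpiLCs (d4), so the transgene is not seen there and the names + PRDM14 are those of the labels. After a shift of every array to a common median, the brightest *Tet2* probe set read 7.90 in Tet1/Tet2 KD EpiLCs + PRDM14 against 8.44 in EpiLCs + PRDM14, and 8.64 in Tet1/Tet2 KD EpiLCs (d2) against 8.46 in EpiLCs (d2). The knockdown label is thus not borne out by *Tet2* at day 2, and *Tet1* was not measured here. All 6 measured genes of naive pluripotency were past 1.5-fold higher in EpiLCs + PRDM14 against EpiLCs (d2) (median 1.65), and all 4 of the primed epiblast were lower (median -1.77). Of the markers of fibroblasts, endoderm, mesoderm and neural cells, *Dcn* of fibroblasts alone was past 1.5-fold in that comparison (-0.62).

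Most of the members with a promoter window share short sequences there that the choice of genes did not use. Of 36 members with a RefSeq promoter window on GRCm38.p6, from 250 bases before the start site to 50 after it, 25 held TTTGAA, the core of the CHR element, and 28 held CCAAT, each counted on both strands. Both were found in 23 of the 36 (63.9%), against 7.97% of all 27025 genes with a window and 6.17% of the 13605 measured here. TTTGAA, with or without CCAAT, was in 69.4% of the members with a window and in 20.2% of all genes. CCAAT, with or without TTTGAA, was in 77.8% and 41.1%. In 22 members TTTGAA began within 50 bases of the start site, and in none of their windows did the 2 motifs share a base. For the 39 genes of the G1-S and replication list with a window, which act earlier in the cycle, the shares were 20.5% for TTTGAA and 59.0% for CCAAT. These are matches of letters and not mapped binding sites.

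The windows of 5 members are printed from 120 bases before the start site to 30 bases after it. All 5 are among the 23 members that hold both motifs, so they show how the motifs lie where both occur. Capitals mark TTTGAA or CCAAT, or their reverse complements TTCAAA and ATTGG. *Cdc20* lies at chr4:118437314-118437463, minus strand, *Ccnb2* at chr9:70421525-70421674, minus strand, *Kif23* at chr9:61946770-61946919, minus strand, *Ube2c* at chr2:164769809-164769958, plus strand, and *Cdk1* at chr10:69352883-69353032, minus strand.
Cdc20: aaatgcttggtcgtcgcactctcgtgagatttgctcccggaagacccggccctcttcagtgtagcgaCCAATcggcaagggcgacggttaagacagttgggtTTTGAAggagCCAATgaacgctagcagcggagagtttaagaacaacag
Ccnb2: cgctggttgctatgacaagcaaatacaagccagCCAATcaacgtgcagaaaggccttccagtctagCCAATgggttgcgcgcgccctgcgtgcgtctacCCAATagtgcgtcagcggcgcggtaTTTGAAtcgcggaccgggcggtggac
Kif23: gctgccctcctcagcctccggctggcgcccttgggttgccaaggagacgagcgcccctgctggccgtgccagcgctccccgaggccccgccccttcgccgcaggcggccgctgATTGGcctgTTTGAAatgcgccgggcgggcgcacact
Ube2c: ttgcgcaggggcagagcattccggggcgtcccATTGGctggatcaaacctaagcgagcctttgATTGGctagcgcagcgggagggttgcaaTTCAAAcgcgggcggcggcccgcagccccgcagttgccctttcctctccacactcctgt
Cdk1: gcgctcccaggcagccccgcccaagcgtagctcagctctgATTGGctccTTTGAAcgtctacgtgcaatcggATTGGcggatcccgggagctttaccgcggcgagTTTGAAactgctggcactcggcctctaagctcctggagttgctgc

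In *Cdc20* and *Ube2c*, whose products activate the APC/C and attach ubiquitin with it, TTTGAA began 18 and 29 bases before the start site. In *Ccnb2* and *Kif23* it began at positions 5 and 3, counted from 1 at the start site, and *Ccnb2* held a further match at position -167, outside the printed stretch. *Cdk1* held it at 71 and at 15 bases before the start. *Plk4*, *Mad2l1*, *Birc5*, *Nuf2*, *Nusap1* and *Pttg1* held neither motif in their windows. The window of *Pttg1* starts from a site 1482 bases inside the outer end of the annotated gene. The same holds at 3852 bases for *Kif2c*, 514 for *Ncapd2*, 512 for *Cdc25b*, 375 and 399 for *Ect2* and 316 for *Aurka*. Of these, *Kif2c*, *Ncapd2*, *Ect2* and *Aurka* are counted as holding TTTGAA. *Aurkb*, *Ccna2*, *Cdc25c*, *Incenp*, *Kif20a*, *Smc4* and *Tpx2* have no window in the table.

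**Figure D1:**
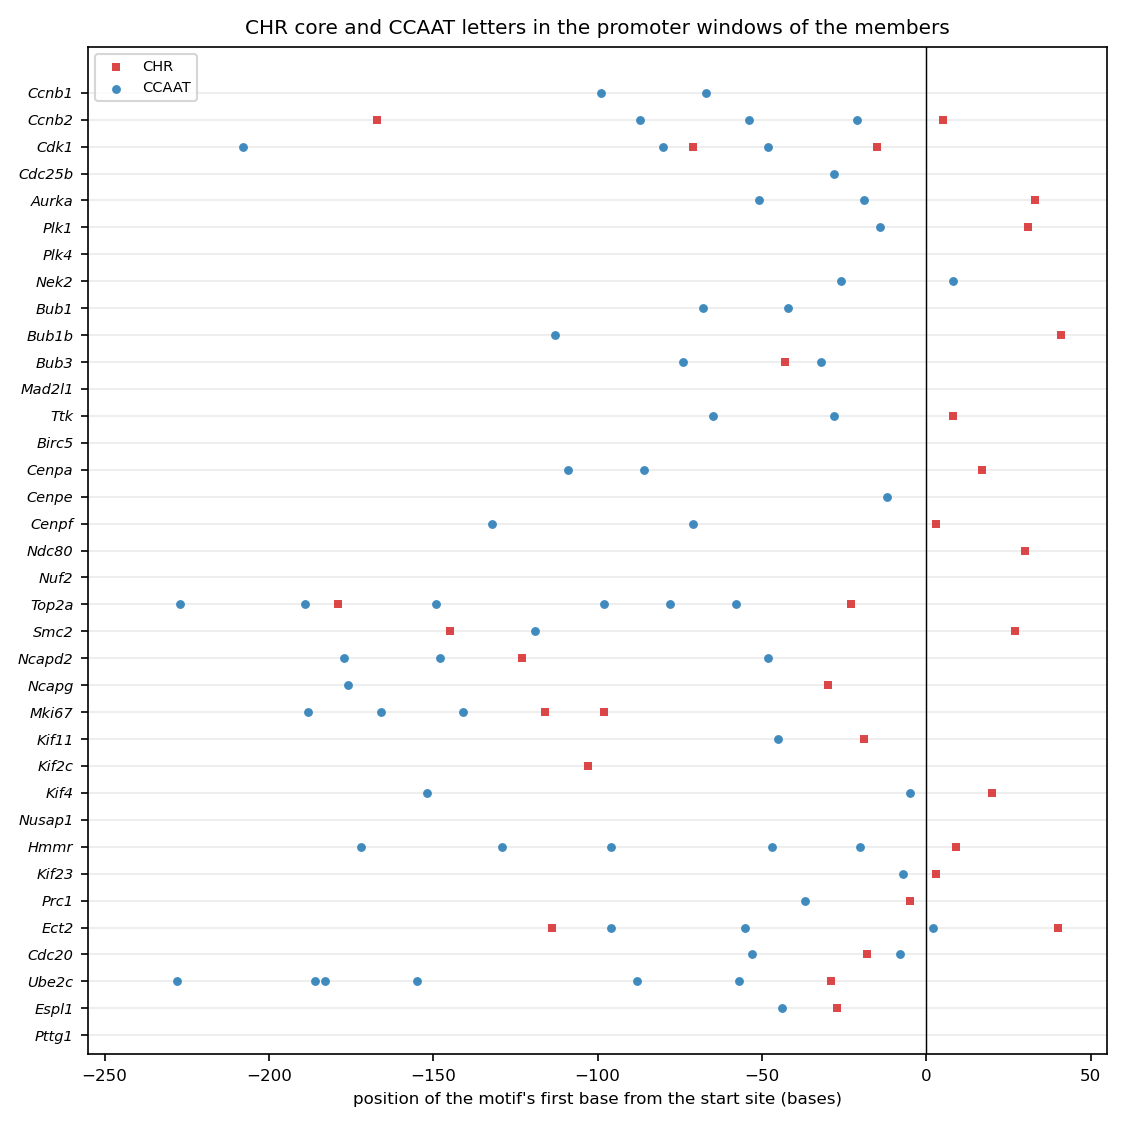
Position of TTTGAA (CHR, squares) and CCAAT (circles), on either strand, from 250 bases before to 50 bases after the start site (vertical line) in the first promoter window of 36 members. TTTGAA lies within 50 bases of the start site in most rows, CCAAT mostly before it, and 6 rows are empty.

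Across ESCs and the scramble arrays the median spread of the mitotic transcripts was about that of all genes, and fewer of them had a wide spread. The spread of a gene over these 4 arrays, from its lowest to its highest value, had a median of 0.22 over the 41 members and 0.20 over all genes. It stayed below 0.3 in 28 of 41 members (68.3%) and in 68.1% of all genes. It was past 1.5-fold in 2 members (4.88%), *Pttg1* (1.13) and *Aurka* (0.68), and in 11.9% of all genes. The 47 measured G1-S and replication genes had a median spread of 0.35, with 29.8% below 0.3 and 21.3% past 1.5-fold. The small differences of the members were not spread evenly over the arrays. EpiLCs + PRDM14 had the lowest of the 4 values in 25 of the 41 members, where it had the lowest in 25.6% of all genes, and ESCs had the highest in 21 of the 41, against 31.3% of all genes. These counts have no test, and most of the differences behind them are far below 1.5-fold.

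**Figure D2:**
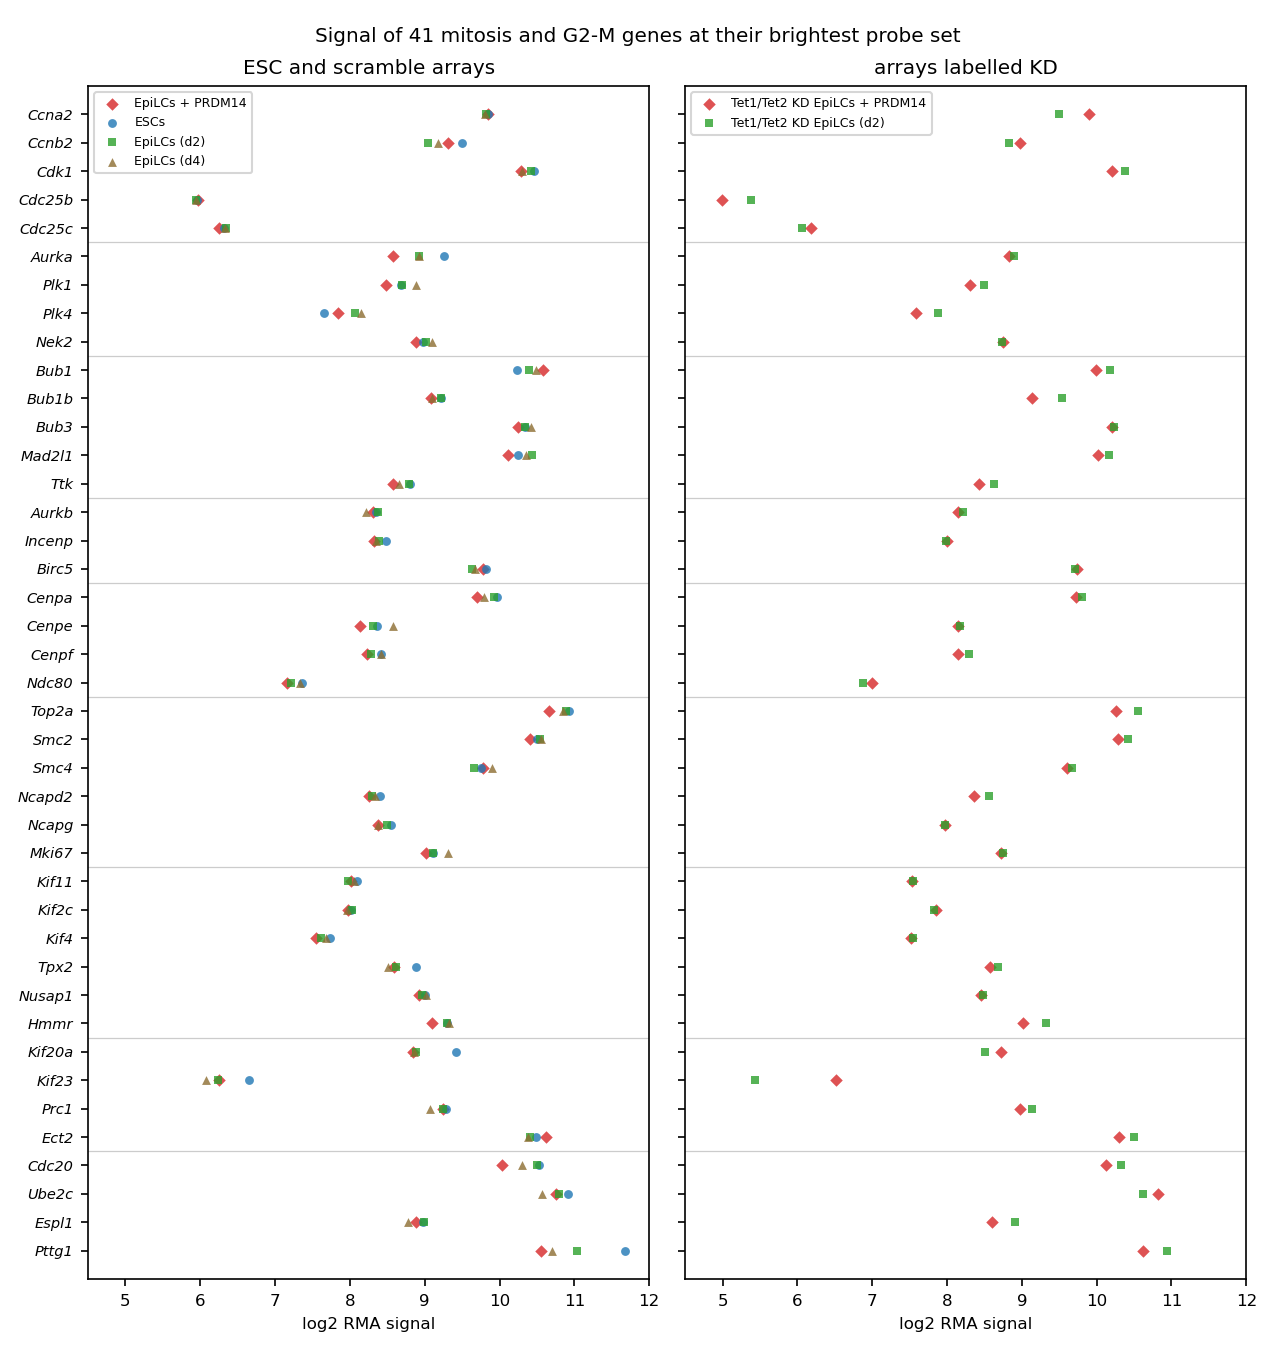
log2 RMA signal (x axis) of the 41 measured members at their brightest probe set, by role from cyclins (top) to anaphase (bottom), in EpiLCs + PRDM14, ESCs, EpiLCs (d2) and EpiLCs (d4) on the left and in the arrays labelled KD on the right. Positions of different genes are not comparable. In most rows the 4 symbols on the left overlap. *Pttg1* and *Aurka* have the widest spread on the left and *Kif23* on the right.

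The comparison of EpiLCs + PRDM14 with EpiLCs (d2) asks which transcripts differ once PRDM14 is induced in EpiLCs. The later day, the change of medium and doxycycline itself go with it. No array has doxycycline without PRDM14, so they cannot be told apart against EpiLCs (d4) either. Of the 41 members, 0 were higher and 0 were lower by 1.5-fold, against 2.73% and 1.91% of all genes. The median difference of the members was -0.07 and that of all genes -0.01, and 32 of 41 members (78.0%) lay below 0, against 52.3% of all genes. The members ran between -0.49 for *Pttg1* and 0.27 for *Ccnb2*. Of the 38 further probe sets that 23 of the members carry, 0 were higher and 0 lower, against 1.86% and 1.25% of all further probe sets.

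Against EpiLCs (d4), which spent the same time in culture without doxycycline, 0 of 41 members were higher and 0 lower in EpiLCs + PRDM14, where 1.88% and 2.15% of all genes were. The members' median was -0.08, with 28 of 41 below 0 (48.1% of all genes), and they ran between -0.45 for *Cenpe* and 0.24 for *Ect2*. EpiLCs (d4) against EpiLCs (d2) compares cells without PRDM14 induction, of which the later ones had also been replated in GK15 medium. It also gave 0 members higher and 0 lower, against 2.17% and 1.13% of all genes. There the median was -0.01 for the members and for all genes. EpiLCs + PRDM14 stands in both of the first comparisons and EpiLCs (d2) in the first and the third, so these are not independent of each other.

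**Figure D3:**
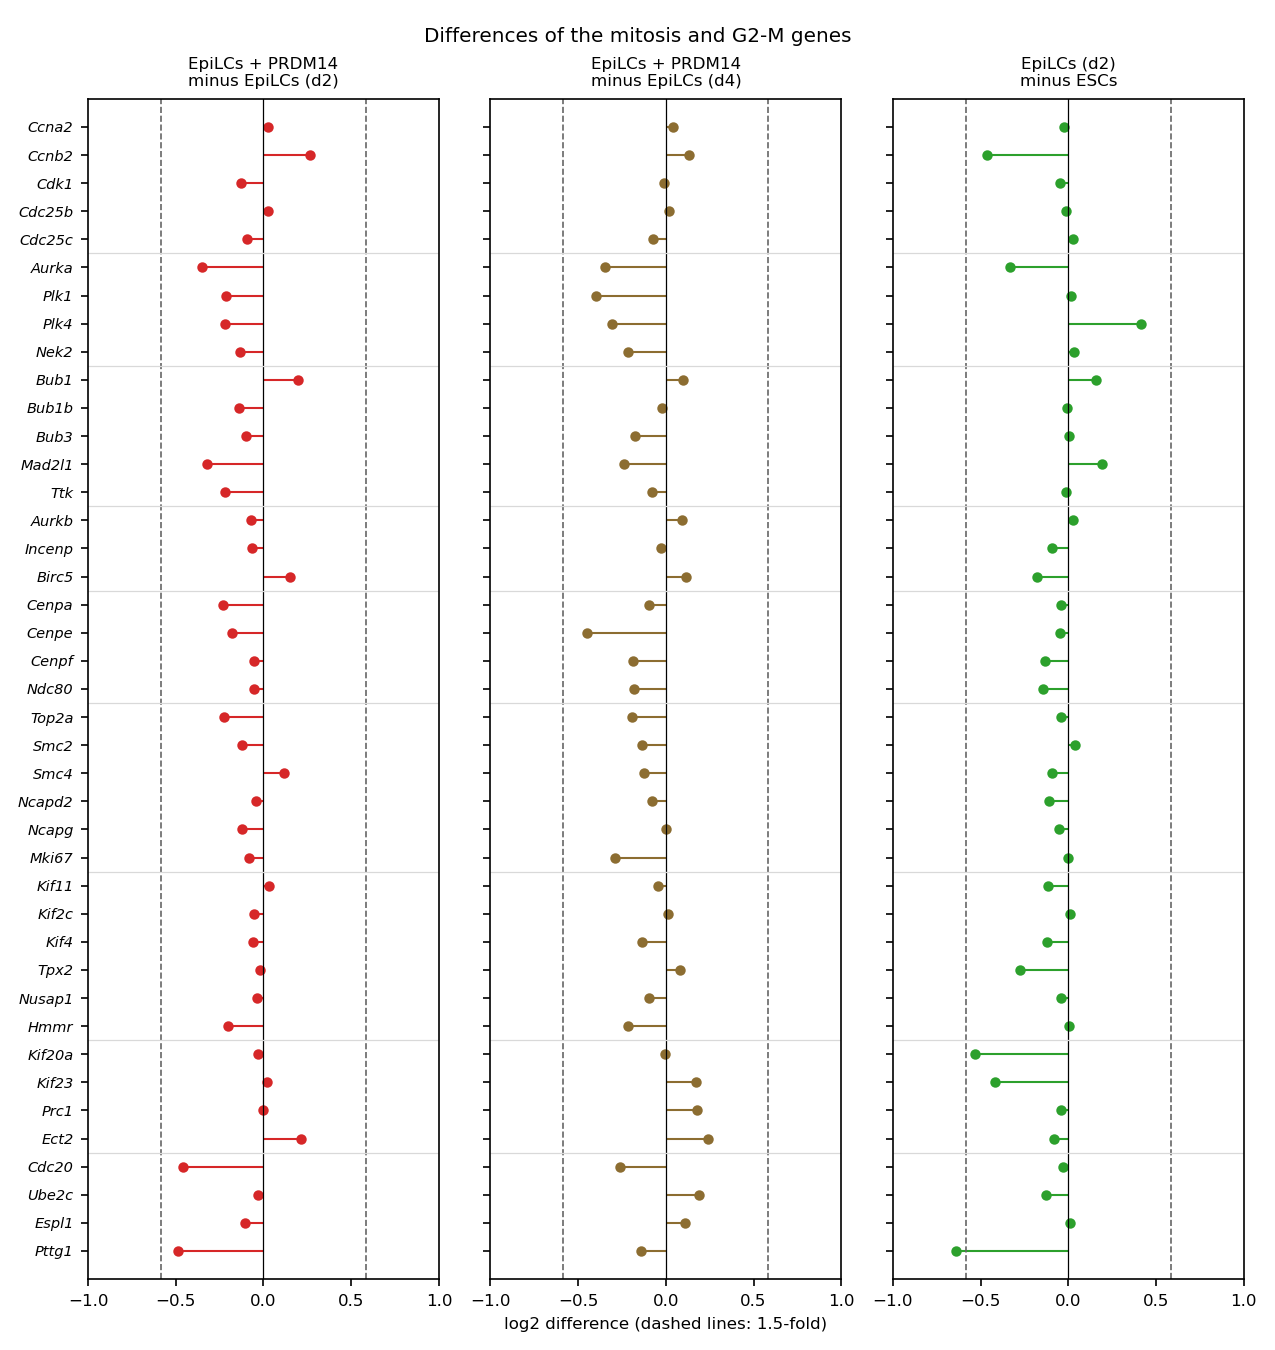
log2 difference of each of the 41 members, by role, in EpiLCs + PRDM14 relative to EpiLCs (d2) (left) and to EpiLCs (d4) (middle), and in EpiLCs (d2) relative to ESCs (right). Dashed lines mark 1.5-fold. No point passes them in the left and middle panels, and *Pttg1* (-0.64) alone does in the right panel.

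The anaphase genes had the lowest median of the 9 role groups against EpiLCs (d2), -0.28 over 4 genes. Against EpiLCs (d4) their median was -0.02, with 2 of 4 below 0, and EpiLCs (d4) lay below EpiLCs (d2) in all 4, with a median of -0.22. *Pttg1* encodes securin, the inhibitor of separase. It read 10.55 in EpiLCs + PRDM14, against 11.68 in ESCs, 11.04 in EpiLCs (d2) and 10.69 in EpiLCs (d4), and 10.62 in Tet1/Tet2 KD EpiLCs + PRDM14 against 10.94 in Tet1/Tet2 KD EpiLCs (d2). ESCs were the highest, and the value of EpiLCs + PRDM14 was close to that of EpiLCs (d4). The differences of EpiLCs + PRDM14 were -0.49 from EpiLCs (d2) and -0.14 from EpiLCs (d4). Its 2 other probe sets gave -0.51 and -0.20 from EpiLCs (d2), the same direction.

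*Cdc20* encodes an activator of the APC/C. It read 10.04 in EpiLCs + PRDM14, against 10.53 in ESCs, 10.50 in EpiLCs (d2) and 10.30 in EpiLCs (d4). EpiLCs + PRDM14 was the lowest, with differences of -0.46 from EpiLCs (d2) and -0.26 from EpiLCs (d4). In the arrays labelled KD it read 10.12 with PRDM14 and 10.32 without, a difference of -0.20. *Ube2c*, the ubiquitin-conjugating enzyme of the APC/C, differed by -0.03 from EpiLCs (d2) and by 0.19 from EpiLCs (d4), and *Espl1*, which encodes separase, by -0.11 and 0.11.

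The centrosome and entry kinases all lay below 0 in EpiLCs + PRDM14 against EpiLCs (d2) (median -0.22, 4 genes) and against EpiLCs (d4) (median -0.33). *Aurka*, the Aurora kinase of the centrosome and spindle poles, read 8.57 in EpiLCs + PRDM14, against 9.26 in ESCs, 8.93 in EpiLCs (d2) and 8.92 in EpiLCs (d4). Its difference was -0.35 from each of the other scramble arrays, and on the arrays labelled KD the values lay closer together, at 8.83 with PRDM14 against 8.89 without. *Plk1*, the Polo-like kinase that drives entry into mitosis, read 8.48 in EpiLCs + PRDM14, against 8.68 in ESCs, 8.70 in EpiLCs (d2) and 8.88 in EpiLCs (d4). On the arrays labelled KD, *Plk1* read 8.31 with PRDM14 against 8.49 without. *Plk4*, which starts centriole duplication, differed from the other members of its group in reading lowest in ESCs, at 7.84 in EpiLCs + PRDM14, against 7.66 in ESCs, 8.07 in EpiLCs (d2) and 8.15 in EpiLCs (d4). *Nek2*, the kinase that loosens the link between centrosomes, differed by -0.13 and -0.22 from EpiLCs (d2) and EpiLCs (d4).

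Among cyclins, CDK1 and CDC25 phosphatases the median was 0.02 against EpiLCs (d2) and against EpiLCs (d4) (5 genes). *Cdk1* read 10.29 in EpiLCs + PRDM14, against 10.46 in ESCs, 10.41 in EpiLCs (d2) and 10.30 in EpiLCs (d4), and 10.21 in Tet1/Tet2 KD EpiLCs + PRDM14 against 10.38 in Tet1/Tet2 KD EpiLCs (d2). These values span 0.18 on the ESC and scramble arrays. *Ccna2*, the gene of cyclin A2, spanned 0.04. *Ccnb2*, the gene of cyclin B2, had the largest positive difference of the list, reading 9.31 in EpiLCs + PRDM14, against 9.50 in ESCs, 9.04 in EpiLCs (d2) and 9.17 in EpiLCs (d4), and its lowest value was that of EpiLCs (d2). *Cdc25b* and *Cdc25c*, phosphatases that activate CDK1, differed by 0.02 and -0.09 from EpiLCs (d2).

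In the spindle assembly checkpoint 4 of 5 genes lay below 0 against EpiLCs (d2), with a median of -0.14. *Mad2l1*, whose product restrains CDC20, read 10.11 in EpiLCs + PRDM14, against 10.25 in ESCs, 10.44 in EpiLCs (d2) and 10.35 in EpiLCs (d4). *Bub1*, a checkpoint kinase of the kinetochore, lay the other way, at 10.58 in EpiLCs + PRDM14, against 10.23 in ESCs, 10.39 in EpiLCs (d2) and 10.49 in EpiLCs (d4). The checkpoint genes *Bub1b*, which encodes BUBR1, *Bub3* and *Ttk*, the gene of the kinase MPS1, differed by -0.14, -0.10 and -0.22. Of the chromosomal passenger complex, *Aurkb*, its kinase, read 8.30 in EpiLCs + PRDM14, against 8.35 in ESCs, 8.38 in EpiLCs (d2) and 8.21 in EpiLCs (d4), and 8.15 in Tet1/Tet2 KD EpiLCs + PRDM14 against 8.21 in Tet1/Tet2 KD EpiLCs (d2). These values of *Aurkb* lie within 0.17 of each other on the ESC and scramble arrays. *Incenp*, the scaffold of the complex, differed from EpiLCs (d2) by -0.07, and *Birc5*, which encodes survivin, by 0.15.

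At the centromere and kinetochore all 4 genes lay below 0 against EpiLCs (d2) (median -0.12) and EpiLCs (d4) (median -0.19). They are *Cenpa*, the centromeric histone H3 variant, at -0.23 and -0.10, *Cenpe*, a kinetochore kinesin, at -0.18 and -0.45, *Cenpf* at -0.05 and -0.19, and *Ndc80*, which binds microtubules, at -0.06 and -0.18. *Cenpe* read 8.13 in EpiLCs + PRDM14, against 8.36 in ESCs, 8.31 in EpiLCs (d2) and 8.58 in EpiLCs (d4), so the larger difference from EpiLCs (d4) goes with a high value there.

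The genes of chromosome structure include 2 that are widely used as marks of dividing cells. *Mki67*, which encodes the Ki-67 antigen, read 9.02 in EpiLCs + PRDM14, against 9.10 in ESCs, 9.11 in EpiLCs (d2) and 9.31 in EpiLCs (d4), and 8.72 in Tet1/Tet2 KD EpiLCs + PRDM14 against 8.75 in Tet1/Tet2 KD EpiLCs (d2). *Top2a*, the gene of topoisomerase II alpha, read 10.66 in EpiLCs + PRDM14, against 10.93 in ESCs, 10.88 in EpiLCs (d2) and 10.85 in EpiLCs (d4), and 10.26 in Tet1/Tet2 KD EpiLCs + PRDM14 against 10.55 in Tet1/Tet2 KD EpiLCs (d2). Among the ESC and scramble arrays both were lowest in EpiLCs + PRDM14, with differences of -0.08 and -0.22 from EpiLCs (d2), and the median of the 6 genes of the group was -0.10. The condensin genes differed from EpiLCs (d2) by -0.12 for *Smc2*, 0.12 for *Smc4*, -0.05 for *Ncapd2* and -0.12 for *Ncapg*.

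The spindle motors and microtubule proteins had a median of -0.05. *Kif11*, the kinesin that pushes the spindle poles apart, differed by 0.03, *Kif2c*, a kinesin that shortens microtubules, by -0.06, and *Kif4*, a kinesin of chromosome arms, by -0.06. *Tpx2*, an activator of Aurora A, differed by -0.02, *Nusap1* by -0.04 and *Hmmr*, which encodes a spindle protein and hyaluronan receptor, by -0.20. The genes of the central spindle and cytokinesis had a median of 0.01, with *Kif20a* at -0.03, *Kif23* at 0.02, *Prc1*, which bundles microtubules, at 0.00 and *Ect2*, the exchange factor that activates RhoA at the cleavage furrow, at 0.21.

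Between EpiLCs (d2) and ESCs 1 of 41 members was lower and 0 were higher, against 2.70% and 2.32% of all genes. The members' median was -0.04 and that of all genes -0.01. *Pttg1* was the member past 1.5-fold, at 11.04 in EpiLCs (d2) against 11.68 in ESCs (-0.64, a 0.64-fold level). Its other probe sets read 9.93 in EpiLCs (d2) against 10.76 in ESCs (-0.83) and 6.59 against 6.91 (-0.32). The first of these was the 1 of 38 further probe sets of the members past 1.5-fold lower, against 1.61% of all further probe sets. Over ESCs, EpiLCs (d2) and EpiLCs (d4) the brightest probe set thus read 11.68, 11.04 and 10.69, each lower than the one before.

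All 4 genes of the central spindle and cytokinesis lay below 0 in EpiLCs (d2), with a median of -0.25. *Kif20a*, a kinesin that brings PLK1 and the passenger complex to the central spindle, read 8.88 in EpiLCs (d2) against 9.41 in ESCs (-0.53), and *Kif23*, the kinesin of centralspindlin, 6.23 in EpiLCs (d2) against 6.65 in ESCs (-0.42). *Kif20a* then read 8.86 in EpiLCs (d4) and 8.85 in EpiLCs + PRDM14, so both stayed close to the value of EpiLCs (d2). *Plk4* had the largest positive difference, with 8.07 in EpiLCs (d2) against 7.66 in ESCs (0.41), and its other probe set gave 0.38. None of these 3 reached 1.5-fold.

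The arrays labelled KD repeat the comparison with day 2 in cells where *Tet1* and *Tet2* are targeted. No array labelled KD at day 4 without PRDM14 exists. PRDM14, doxycycline itself, the later day and the change of medium thus cannot be told apart in this pair. Between Tet1/Tet2 KD EpiLCs + PRDM14 and Tet1/Tet2 KD EpiLCs (d2), 1 of 41 members was higher and 0 were lower, against 2.13% and 2.52% of all genes. The members' median was -0.08 and that of all genes -0.01, with 29 of 41 members below 0. The members' median was -0.03 after quantile normalization of all arrays and with the mean of each gene's probe sets. The sign of the difference was that of the scramble pair in 28 of 41 members (24 below 0 and 4 above 0 in both), and in 61.9% of all genes. The difference between the 2 pairs could not be tested with 1 array per condition. It had a median of 0.01 over the members and was past 1.5-fold in *Kif23* alone (1.07).

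*Kif23* read 6.52 in Tet1/Tet2 KD EpiLCs + PRDM14 against 5.43 in Tet1/Tet2 KD EpiLCs (d2), a difference of 1.09 (2.12-fold). In the scramble pair it read 6.25 in EpiLCs + PRDM14 against 6.23 in EpiLCs (d2). After a shift to a common median, Tet1/Tet2 KD EpiLCs (d2) lay below EpiLCs (d2) (5.57 against 6.16, -0.59). Tet1/Tet2 KD EpiLCs + PRDM14 lay above EpiLCs + PRDM14 (6.66 against 6.18, 0.48). The difference in the pair labelled KD thus comes from both arrays. The other *Kif23* probe set read 4.15 against 4.18 in the arrays labelled KD, below the median of all probe sets, and the mean of both probe sets gave 0.53, short of 1.5-fold. *Ccna2* had the next largest difference, with 9.89 in Tet1/Tet2 KD EpiLCs + PRDM14 against 9.50 in Tet1/Tet2 KD EpiLCs (d2) (0.40). *Bub1b*, at 9.14 in Tet1/Tet2 KD EpiLCs + PRDM14 against 9.53 in Tet1/Tet2 KD EpiLCs (d2), and *Cdc25b* had differences of -0.39 each.

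The further probe sets of the members gave another picture of the pair labelled KD than the brightest ones. Of 38, 6 were higher in Tet1/Tet2 KD EpiLCs + PRDM14 and 0 were lower, against 2.07% and 1.55% of all further probe sets. They belong to *Cenpe*, *Plk4*, *Smc4* and *Smc2*. The second *Cenpe* probe set read 7.05 in Tet1/Tet2 KD EpiLCs + PRDM14 against 5.71 in Tet1/Tet2 KD EpiLCs (d2), a difference of 1.34, where the brightest read 8.15 against 8.18. The second *Plk4* probe set read 6.40 against 5.26 (1.14), and its brightest 7.59 against 7.88 (-0.29). For *Smc4* the further probe sets differed by 0.66 and 0.63 and the brightest by -0.08, and for *Smc2* 2 of the 3 further ones differed by 0.59 each and the brightest by -0.13. So, for these 4 genes, the direction depends on the probe set. In the scramble pair the 6 probe sets differed by -0.31 to 0.23.

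**Figure D4:**
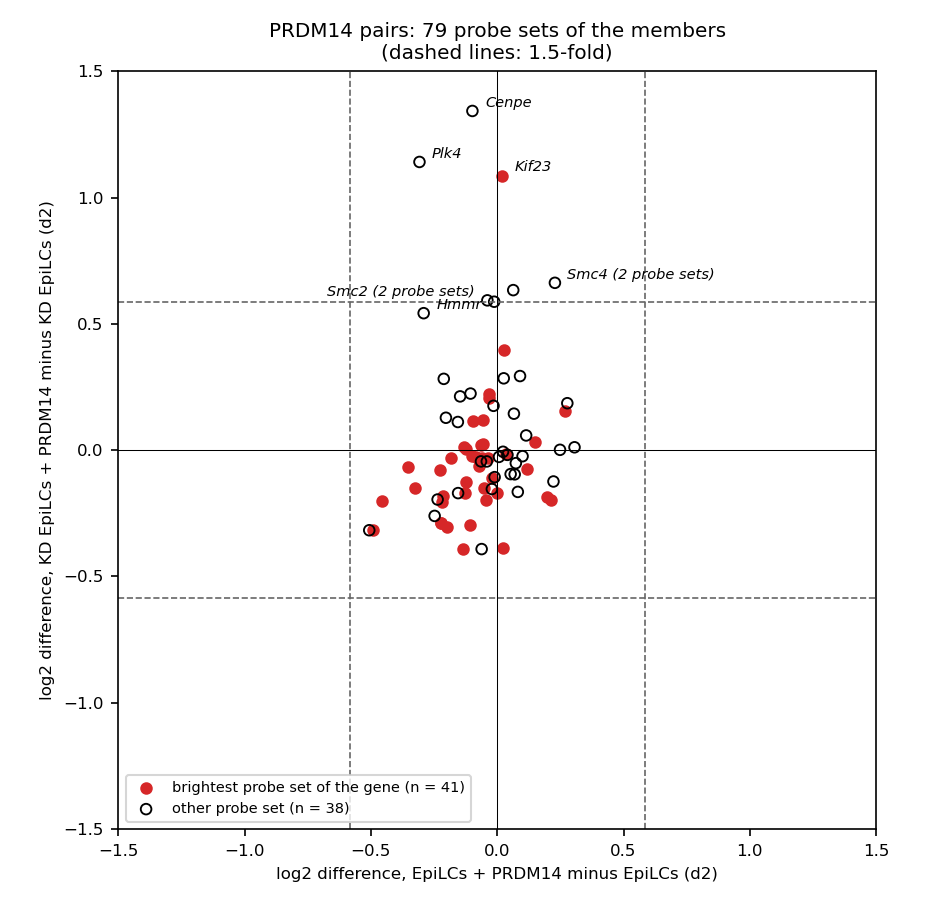
log2 differences of the 79 probe sets of the 41 members in the scramble pair (x axis) and in the pair labelled KD (y axis), as filled red points for the brightest probe set of each gene and open points for the others. Dashed lines mark 1.5-fold. No point passes it on the x axis, and 7 points pass it on the y axis, all upwards, of which the *Kif23* point alone is a brightest probe set.

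Control probe sets moved with these values. For dap, a bacterial control transcript with probe sets at both ends, the 5' end read 5.94 in Tet1/Tet2 KD EpiLCs + PRDM14 against 4.76 in Tet1/Tet2 KD EpiLCs (d2). On the other arrays it read 4.73 to 4.98, so at this end Tet1/Tet2 KD EpiLCs + PRDM14 was the array apart. The 3' minus 5' difference was 3.05 in Tet1/Tet2 KD EpiLCs + PRDM14 against 4.28 in Tet1/Tet2 KD EpiLCs (d2), with 3.22 to 3.45 on the other arrays. For beta-actin it was 0.45 against 0.66 (0.41 to 0.47 on the others), and for *Gapdh* -0.13 against 0.10 (-0.07 to 0.02). The array of Tet1/Tet2 KD EpiLCs (d2) was thus the lowest at the 5' end relative to the 3' end for all 3 transcripts. Tet1/Tet2 KD EpiLCs + PRDM14 was the highest in this for dap and *Gapdh*. The part of these end differences in the *Kif23*, *Cenpe*, *Plk4*, *Smc4* and *Smc2* values was not tested.

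After a shift to a common median, Tet1/Tet2 KD EpiLCs (d2) had 1 member lower than EpiLCs (d2) and 0 higher, against 2.25% and 3.30% of all genes. It was *Kif23*, at 5.57 in Tet1/Tet2 KD EpiLCs (d2) against 6.16 in EpiLCs (d2) (-0.59, at the edge of the threshold). *Bub1b* (0.53) and *Ncapd2* (0.48) had the largest positive differences, and the median was 0.04. Of the 38 further probe sets 8 were lower, against 2.69% of all further probe sets. They were 1 of *Cenpe* (-1.92), 3 of *Smc2* (-1.11, -0.94 and -0.66), and 1 each of *Plk4* (-0.95), *Ttk* (-0.74), *Hmmr* (-0.66) and *Smc4* (-0.64). Tet1/Tet2 KD EpiLCs + PRDM14 had 1 member lower than EpiLCs + PRDM14 and 0 higher, against 3.39% and 3.58% of all genes. It was *Cdc25b*, at 5.14 in Tet1/Tet2 KD EpiLCs + PRDM14 against 5.89 in EpiLCs + PRDM14 (-0.75). Of the further probe sets 1 was lower, that of *Ttk* (-0.74), against 2.97% of all.

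Other genes of mitosis, taken from 7 lists on MuvB and FOXM1, entry into mitosis, the APC/C, kinetochores, condensin and cohesin, the spindle and centrioles, numbered 141 measured of 150. In EpiLCs + PRDM14 against EpiLCs (d2), 1 was higher and 4 were lower by 1.5-fold, beside 2.73% and 1.91% of all genes, with a median of -0.03. Of these other genes 57.4% lay below 0, against 52.3% of all genes. Against EpiLCs (d4) 46.8% did, against 48.1% of all genes, with a median of 0.01. *Stag2*, which encodes a cohesin subunit, read 7.25 in EpiLCs + PRDM14, against 7.44 in ESCs, 8.57 in EpiLCs (d2) and 8.61 in EpiLCs (d4), and 6.95 in Tet1/Tet2 KD EpiLCs + PRDM14 against 8.21 in Tet1/Tet2 KD EpiLCs (d2). EpiLCs + PRDM14 lay near ESCs and apart from both other EpiLC arrays, and the pair labelled KD differed alike (-1.31 and -1.26). *Cks1b*, the gene of a small subunit of cyclin-dependent kinases, read 10.83 in EpiLCs + PRDM14, against 11.24 in ESCs, 11.59 in EpiLCs (d2) and 11.57 in EpiLCs (d4), and 10.92 in Tet1/Tet2 KD EpiLCs + PRDM14 against 11.51 in Tet1/Tet2 KD EpiLCs (d2). The array with PRDM14 was the lower one in both pairs. The mitotic kinase gene *Pbk* (-0.61) and the centromere gene *Cenpl* (-0.62) were also lower, and *Kif14*, a kinesin of cytokinesis, was higher (0.65) at signals of 4.51 in EpiLCs + PRDM14 against 3.85 in EpiLCs (d2), both below the array median.

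The G1-S and replication genes, which act before mitosis in the same cycle, were lower in 7 of 47 and higher in 0 of 47 in EpiLCs + PRDM14 against EpiLCs (d2), beside 1.91% and 2.73% of all genes, with a median of -0.26, where the mitosis and G2-M genes had 0 of 41 and -0.07. Against EpiLCs (d4), 2 of 47 were lower and the median was 0.00, and EpiLCs (d4) without PRDM14 had a median of -0.20 against EpiLCs (d2), with 43 of 47 below 0. The difference from EpiLCs (d2) was thus largely shared by EpiLCs (d4). The housekeeping genes had a median of 0.00, with 0 of 8 past 1.5-fold.

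**Figure D5:**
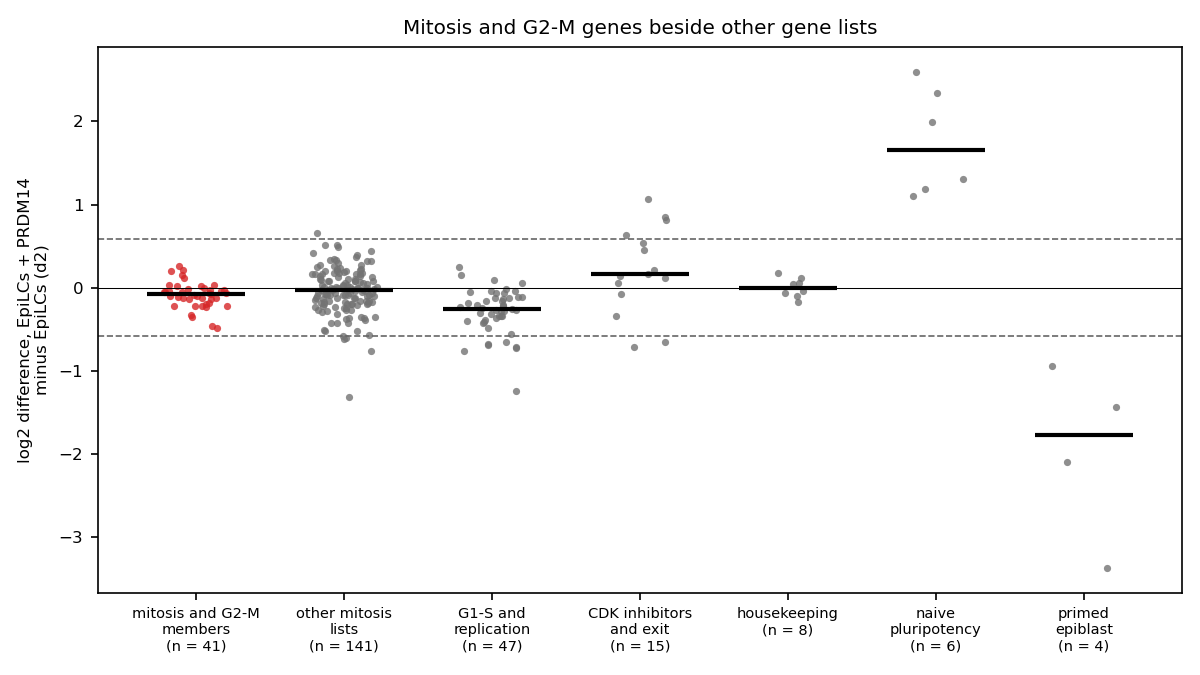
log2 difference of EpiLCs + PRDM14 minus EpiLCs (d2) for the genes of 7 sets, each point a gene at its brightest probe set and each bar the set's median. Dashed lines mark 1.5-fold. All 41 mitosis and G2-M members lie between the lines, and all 6 naive and all 4 primed genes lie outside them.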

How the data were processed

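Total RNA of 6 cultures, 1 per condition, was labelled by the authors with a 3' IVT kit (GeneChip 3' IVT Express) for Affymetrix mouse array strips. The deposited columns hold log2 signals from the authors' robust multi-array average (RMA), which puts arrays on a common scale and can shrink small differences. The submitters' processing notes name the Affymetrix Expression Console. Which version was run is not stated there. The arrays labelled KD have lower medians and appear to come from another normalization run, so they were set against the scramble arrays only after a shift of every array to a common median.

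Of 45141 probe sets, 104 controls were left out. The platform annotation gives 1 symbol for 28898 of the rest, which stand for 17097 genes, and the brightest probe set of each gene was used (Python 3.11.15, pandas 2.3.3, numpy 2.4.6, figures with matplotlib 3.10.9). Calls were made at 1.5-fold, without tests. The members and gene lists (283 of 300 symbols measured) were chosen with earlier results of these data known. The rule gives all arrays' values for members past 1.5-fold in a comparison with PRDM14 or between days, and for *Mki67*, *Top2a*, *Cdk1*, *Plk1* and *Aurkb*. Of the other lists it names up to 4 genes past 1.5-fold. Further members were detailed after their values were seen. The calling code was run on simulated pairs of arrays with known changes, with noise set from the difference between EpiLCs (d4) and EpiLCs (d2). That is not replicate noise, so the run gives no error rate for these arrays. Promoter windows are from RefSeq on GRCm38.p6. Alternatives were a 2-fold threshold, other scalings, a filter on dim probe sets and other ways to choose a gene's probe set.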

Additional observations from a re-analysis of the deposited data

How the results depend on the processing

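The counts of 0 members higher and 0 lower in all 3 comparisons among EpiLCs + PRDM14, EpiLCs (d4) and EpiLCs (d2), held under every alternative run. The members' median ran between -0.08 and -0.06 for EpiLCs + PRDM14 minus EpiLCs (d2), between -0.08 and -0.05 against EpiLCs (d4), between -0.02 and -0.01 for EpiLCs (d4) minus EpiLCs (d2), and at -0.04 for EpiLCs (d2) minus ESCs. For the pair labelled KD it moved more, to -0.03 under quantile normalization and under the mean of all probe sets, instead of -0.08. The count of members lowest in EpiLCs + PRDM14 ran between 21 and 25, and that of members highest in ESCs between 21 and 22 (settings for these counts were chosen after seeing the data). At a 2-fold threshold 0 members were lower in EpiLCs (d2) than in ESCs, and 0 in either comparison of an array labelled KD with its scramble counterpart, each instead of 1, because the threshold is stricter. When a gene counts if any of its probe sets passes, an alternative added after seeing the data, 5 members were higher in Tet1/Tet2 KD EpiLCs + PRDM14 than in Tet1/Tet2 KD EpiLCs (d2), instead of 1. The members lower in the arrays labelled KD than in the scramble arrays were then 7 in EpiLCs (d2) and 2 in EpiLCs + PRDM14, instead of 1 each. Any gene with several probe sets passes more easily under this rule. Shares over all genes were not computed for the alternatives, so their counts are no result about the members. The mean of all probe sets gave 2 members lower in Tet1/Tet2 KD EpiLCs (d2) than in EpiLCs (d2). In the pair labelled KD it took the call from *Kif23* (0.53) and gave one to *Cenpe* (0.66). Deposited values without a shift gave 2 members lower in Tet1/Tet2 KD EpiLCs + PRDM14 than in EpiLCs + PRDM14. They put the members' medians against the scramble arrays at -0.17 in EpiLCs (d2) and -0.12 in EpiLCs + PRDM14, since the columns differ in median. The filter on dim probe sets removed *Cdc25b* and so left 0 members lower there. *Aurkb* has no probe set outside the types that can match several transcripts and is missing under that alternative. No paired analysis was possible because each condition has 1 array, for which reason no replicate could be left out either. Signals below the array medians, as for the second *Kif23* probe set, carry little information.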

Other observations

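Genes that restrain the cell cycle gave a less even picture than the mitotic genes. Of 15 measured CDK inhibitors and genes of cell cycle exit, 4 were higher and 2 lower by 1.5-fold in EpiLCs + PRDM14 against EpiLCs (d2) (median 0.17), beside 2.73% and 1.91% of all genes. Against EpiLCs (d4), 3 were higher and 1 lower (median 0.05), beside 1.88% and 2.15% of all genes. EpiLCs (d4) without PRDM14 itself had 3 higher and 1 lower against EpiLCs (d2) (median 0.24), beside 2.17% and 1.13%. *Cdkn1b* and *Btg1* were called higher in both EpiLCs + PRDM14 and EpiLCs (d4) against EpiLCs (d2). *Cdkn1c* went opposite ways there (-0.66 and 0.73), as did *Sesn1* (0.22 and -0.93). *Rb1*, *Btg2* and *Gadd45a*, called in EpiLCs + PRDM14, differed the same way in EpiLCs (d4) but short of 1.5-fold (0.27, 0.32 and -0.31). *Rb1*, the gene of the retinoblastoma protein, read 6.40 in EpiLCs + PRDM14, against 4.91 in ESCs, 5.33 in EpiLCs (d2) and 5.60 in EpiLCs (d4), the highest value of the 4 (1.07 above EpiLCs (d2)). Its value in ESCs was below the median of that array (5.29), and its value in EpiLCs (d2) was close to the median there (5.28). The antiproliferative genes *Btg2* (0.85) and *Btg1* (0.81) and *Cdkn1b*, which encodes p27 (0.63), were also higher. *Cdkn1b* read 6.49 in EpiLCs + PRDM14 against 6.68 in EpiLCs (d4), so it was not higher than in the later EpiLCs without PRDM14. *Btg1* was 0.17 above EpiLCs (d4), which itself was 0.63 above EpiLCs (d2). *Cdkn1c*, which encodes p57, read 6.93 in EpiLCs + PRDM14, against 5.12 in ESCs, 7.59 in EpiLCs (d2) and 8.33 in EpiLCs (d4). The stress gene *Gadd45a* was lower, at 7.66 in EpiLCs + PRDM14 against 8.37 in EpiLCs (d2). In the pair labelled KD, 2 genes of this list were higher and 2 lower, beside 2.13% and 2.52% of all genes. *Cdkn1c* (0.91) and *Btg1* (0.61) were higher, and *Ccng2* (-0.79, at signals below the array median) and *Sesn1* (-0.78) lower. Of the genes called in the scramble pair, *Btg1* alone was called there in the same direction. *Btg2* differed by 0.32, *Rb1* by 0.16, *Cdkn1b* by -0.05 and *Gadd45a* by 0.00.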
